A study of Mus musculus with 1699 samples.

Results

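Of 39468 annotated entries measured, 10 genes of transcriptional regulators, studied as branch-specific in Pitx3-expressing midbrain neurons, were followed by stage, by Pitx3 genotype and cell by cell: Zfhx3, Zfhx4, Pou2f2, Zfp536, Zfp385b, Tcf4, Tcf12, Bcl11a, Bcl11b and Ldb2. They were chosen by their measured levels in these same cells, so their branch pattern, and the opposition between branches that follows from the choice, are given as descriptions and were not tested. In Pitx3 heterozygotes at P1 and P90, the branches as split here did not differ beyond counting error in the share of cells with Zfhx4, Pou2f2, Bcl11a or Bcl11b. In homozygous P1 cells they did for Pou2f2 and Bcl11a. Of the 10, 4 form opposed pairs: Zfhx3 and Pou2f2 on the side of neurons with high levels of the dopamine transporter gene Slc6a3 (Dat), and Zfp536 and Zfp385b on the side of neurons with low levels. The question asked of these 4 was how strictly single cells keep the pairs apart, and in which cells they occur together. A gene was counted as present in a cell at over 10 RPKM, reads scaled to transcript length and to the mapped reads of the cell. A cell at or under 10 RPKM may still hold the transcript, since single-cell sequencing misses many molecules.

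The cells were single green fluorescent neurons sorted from dissociated mouse ventral midbrain and sequenced over full-length transcripts. All animals carried an eGFP gene in the Pitx3 locus (Pitx3tm1Mli), so no group was free of the targeted allele: Pitx3eGFP/wt heterozygotes, with 1 working copy of Pitx3, were sampled before birth (E13.5, E15.5 and E18.5) and after it (P1, P7 and P90), and Pitx3eGFP/eGFP homozygotes, with none, at E13.5 and P1. Of 1699 cells, 1649 passed limits on reads and detected genes, 14.1% of these carried markers of glia or vessels and were left out, and 1416 were kept. The smallest group was P7 with 66 cells, heterozygous E13.5 and E15.5 held 140 each and heterozygous P1 250, and the number of every group stands under its bar in the plot of states. Since the labels tie no cell to an animal, every combination of stage and genotype counted as 1 sample. No test between groups was therefore possible, and every interval below is a 95% interval that covers the counting of cells only, not differences between animals.

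Transcription factors of these families bind DNA through zinc fingers, homeodomains or basic helix-loop-helix domains and help to fix which genes a neuron expresses as it matures. Midbrain dopamine neurons arise in the floor plate and depend on Pitx3, a homeodomain factor, most of all in the substantia nigra. Slc6a3 encodes the transporter that takes dopamine back up, Nxph4 encodes a neuronal secreted glycoprotein, Gad2 a GABA-synthesising enzyme, Aldh1a1 a retinaldehyde dehydrogenase and Vip a neuropeptide. The last 4 are markers of subgroups of these neurons.

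By role, Zfhx3 (chromosome 8, 107942644 to 108961630, plus strand) and Zfhx4 (chromosome 3, 5218526 to 5415857, plus strand) encode large zinc-finger homeobox proteins. Pou2f2 (Oct-2; chromosome 7, 25087344 to 25179726, minus strand) encodes a POU homeodomain protein. Zfp536 (chromosome 7, 37472135 to 37773641, minus strand) and Zfp385b (chromosome 2, 77410634 to 77819639, minus strand) encode zinc-finger proteins. Tcf4 and Tcf12 (chromosome 9, 71842688 to 72111871, minus strand) encode E proteins, basic helix-loop-helix factors that pair with proneural factors and are blocked by Id proteins. Bcl11a (chromosome 11, 24078056 to 24174123, plus strand) and Bcl11b (chromosome 12, 107910403 to 108003602, minus strand) encode zinc-finger proteins found with the BAF chromatin remodelling complex. Ldb2 (chromosome 5, 44472132 to 44799680, minus strand) encodes a cofactor that bridges LIM-domain factors. Positions are on GRCm38 from the GENCODE annotation. Reads were not strand-specific, so Bcl11a could not be told apart from an antisense gene where exons of the 2 overlap, and Pou2f2 overlaps a microRNA gene.

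For the pair of factors on the Slc6a3-high side, 3 of the stretches that the study targeted with in situ probes lay wholly in coding sequence, and they are shown because they mark where in the transcript these genes were also looked for in tissue sections. The 2 Zfhx3 targets lay in the same coding exon, exon 2 of 10 of an annotated transcript, at chr8:108792803-108792842 and chr8:108794271-108794310 on the plus strand. The Pou2f2 target joined 2 neighbouring coding exons across chr7:25097034-25097148 on the minus strand, so it is read from spliced RNA. Sequences are written 5′ to 3′, each of 40 bases.
Zfhx3 probe 1: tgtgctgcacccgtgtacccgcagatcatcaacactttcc
Zfhx3 probe 2: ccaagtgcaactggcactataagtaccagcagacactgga
Pou2f2 probe 1: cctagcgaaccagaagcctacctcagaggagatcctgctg

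The mean level of the targeted gene followed the genotype labels. Mean Pitx3 was 415.7 RPKM in heterozygous and 18.9 in homozygous cells at E13.5, and 106.2 and 8.91 at P1. It was over 10 RPKM in 87.1% of heterozygous and 61.8% of homozygous cells at E13.5, and in 65.6% and 32.9% at P1, so homozygous cells still held reads of the gene. All 5 neuronal markers were present in most cells of every group, as were 4 to 6 of 6 dopamine neuron markers, and Sox10, which defines the oligodendrocyte lineage, was present in at most 0.800% of the cells kept at any stage. Olig1, another gene of that lineage, was present in 9.09% of the cells kept at P7, in 3.2% of heterozygous and 6.29% of homozygous P1 cells, in 2.26% at E18.5 and in 0 of the cells of the other stages, which allows up to 2.14% at E13.5, and its part in the results was not tested. Of the kept P7 cells, 37.9% had none of the 10 markers of that lineage. Median reads per cell ran from 749734 (homozygous E13.5) to 2357898 (heterozygous E13.5). The tissue was taken apart with different kits at embryonic, early postnatal and P90 stages, and spike-in RNA was used at E18.5, on 1 heterozygous P1 plate, at P90 and in all homozygous cells. Stage and dissociation therefore cannot be told apart between E18.5 and P1 or between P7 and P90, nor genotype and spike-in at E13.5. Stage and spike-in cannot be told apart between P7, without it, and P90, with it, for any of the genes. At P7, 63.1% of the cells carried glial or vascular markers and were left out. With every cell thinned to 100000 reads, the share of cells with each of the 10 genes stayed within the counting interval of the full-depth share in all 80 combinations of gene and group.

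Of the 4 paired factors, Zfhx3 went down most from E13.5 to P90 and Zfp385b went up most, in percentage points of heterozygous cells. By mean level Pou2f2 went down further than Zfhx3, from 23.4 to 1.15 RPKM. In stage order from E13.5 to P90, Zfhx3 was present in 54.3 (45.7 to 62.7), 46.4, 47.5, 30.8, 25.8 and 8.07% (5.34 to 11.6) of heterozygous cells. Its mean level went from 20 RPKM at E13.5 to 2.28 at P90, and among the cells in which it was present the median went from 27.6 to 12.8 RPKM. Both the number of cells and the level per cell were thus lower late. Neighbouring stages differed beyond counting error at 2 steps, E18.5 to P1 (-16.7 points, -25.8 to -7.28) and P7 to P90 (-17.7 points, -29.6 to -8.02), and these are the 2 steps at which dissociation differed too. Spike-in use also differed at both: no P7 cell and every P90 cell had spike-in RNA. At the first step all E18.5 cells had it, and only part of the P1 cells. The P1 Zfhx3 share was 39.1% (29.1 to 49.9) with spike-in RNA and 25.9% (19.3 to 33.5) without. The E18.5 share was 47.5% (39.9 to 55.1). At P90, 66.1% of cells still held at least 1 Zfhx3 read, so most of the adult cells fell under the limit without being empty. Thinned to 100000 reads, the Zfhx3 shares were 52.1% at E13.5 and 7.45% at P90. In the glial and vascular cells left out the Zfhx3 share was 12.4%, but only 3 of those cells were from P90. At the same stage it was lower in left-out than in kept heterozygous cells, at 16.9% against 30.8% at P1 and 7.08% against 25.8% at P7.

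Pou2f2 was present in fewer cells than Zfhx3 at each heterozygous stage but P7, and did not follow it stage by stage. In stage order its shares were 28.6 (21.3 to 36.8), 16.4, 23.7, 20, 30.3 (19.6 to 42.9) and 4.35% (2.40 to 7.19). The mean level was 23.4 RPKM at E13.5, between 6.87 and 11.3 from E15.5 to P7, and 1.15 at P90. The step from P7 to P90 measured -26.0 points (-38.0 to -15.8) and that from E13.5 to E15.5 -12.1 points (-21.7 to -2.35). The intervals of the steps from E15.5 to P7 included 0. The left-out cells, of which only 3 were from P90, had a Pou2f2 share of 10.3%. At the same stage it was lower in left-out than in kept heterozygous cells, at 9.23% against 20% at P1 and 7.08% against 30.3% at P7.

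Over all cells, Zfp536 was lower from E18.5 to P7 and as frequent in the adult as at E13.5. The shares in stage order were 41.4 (33.2 to 50.1), 32.9, 20.3, 21.6, 18.2 and 41.3% (35.9 to 46.9). The E13.5 and P90 shares differed by -0.124 points (-9.93 to 9.41), while the mean level was 32.2 RPKM at E13.5 and 16.9 at P90. The shares did not differ beyond counting error, and the level in the positive cells was lower, with a median of 73.7 RPKM at E13.5 and 33.1 at P90. Spike-in use began between E15.5 and E18.5, and at heterozygous P1 the Zfp536 share was 14.1% with spike-in RNA and 25.9% without, with means of 7.94 and 21.2 RPKM. The left-out cells had a Zfp536 share of 11.6%.

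Zfp385b was nearly missing at the start. A single cell of 140 passed at E13.5, 0.714% (0.0181 to 3.92%), and the later shares were 10, 18.6, 16.8, 7.58 (2.51 to 16.8) and, in the adult, 42.2% (36.8 to 47.8). From E13.5 to P90 the difference was 41.5 points (35.3 to 47). The mean level went from 0.188 to 20.8 RPKM. The step from P7 to P90 was 34.7 points (24.3 to 41.6) and coincided with the change to papain dissociation and with a change in spike-in use. Thinning gave 0.714% at E13.5 and 38.5% at P90, and the left-out cells stood at 8.15%, about the P7 share. Over all 1416 cells, Zfhx3 lay between 10 and 20 RPKM in 46% of its positive cells, Pou2f2 in 22.3%, Zfp536 in 16.7% and Zfp385b in 20.3%. Just under the limit, between 5 and 10 RPKM, lay 9.68% of all cells for Zfhx3, 2.61% for Pou2f2, 2.19% for Zfp536 and 3.60% for Zfp385b, so of these 4 the Zfhx3 shares turned most on where the limit was set.

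The mix of cells changed with stage as well. Cells with Nxph4 or Gad2 over 150 RPKM and Slc6a3 not over it went from 24.2% of cells at P7 to 68.9% at P90, and cells with Slc6a3 over 150 RPKM from 34.8% to 22%. Among the former, the Zfp536 shares in stage order were 68, 81.8, 69.2, 55.9, 56.2 and 57.7%, nearly level from P7 to P90. Among the latter, Zfhx3 was present in 26.1% at P7 and 28.2% at P90. Zfp385b was present in 18.8% of the Nxph4- or Gad2-high cells at P7, 3 of 16, and in 51.8% at P90. Pou2f2 was lower within the Slc6a3-high cells too, at 39.1% (9 of 23) at P7 and 7.04% at P90. The steps from P7 to P90 over all cells thus came with that change of mix. In tissue sections the paper found far fewer Dat-low than Dat-high cells, and it describes the latter as underrepresented among its sequenced cells. The P90 shares over all cells therefore describe the cells recovered, not the make-up of the adult midbrain.

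**Figure D1:**
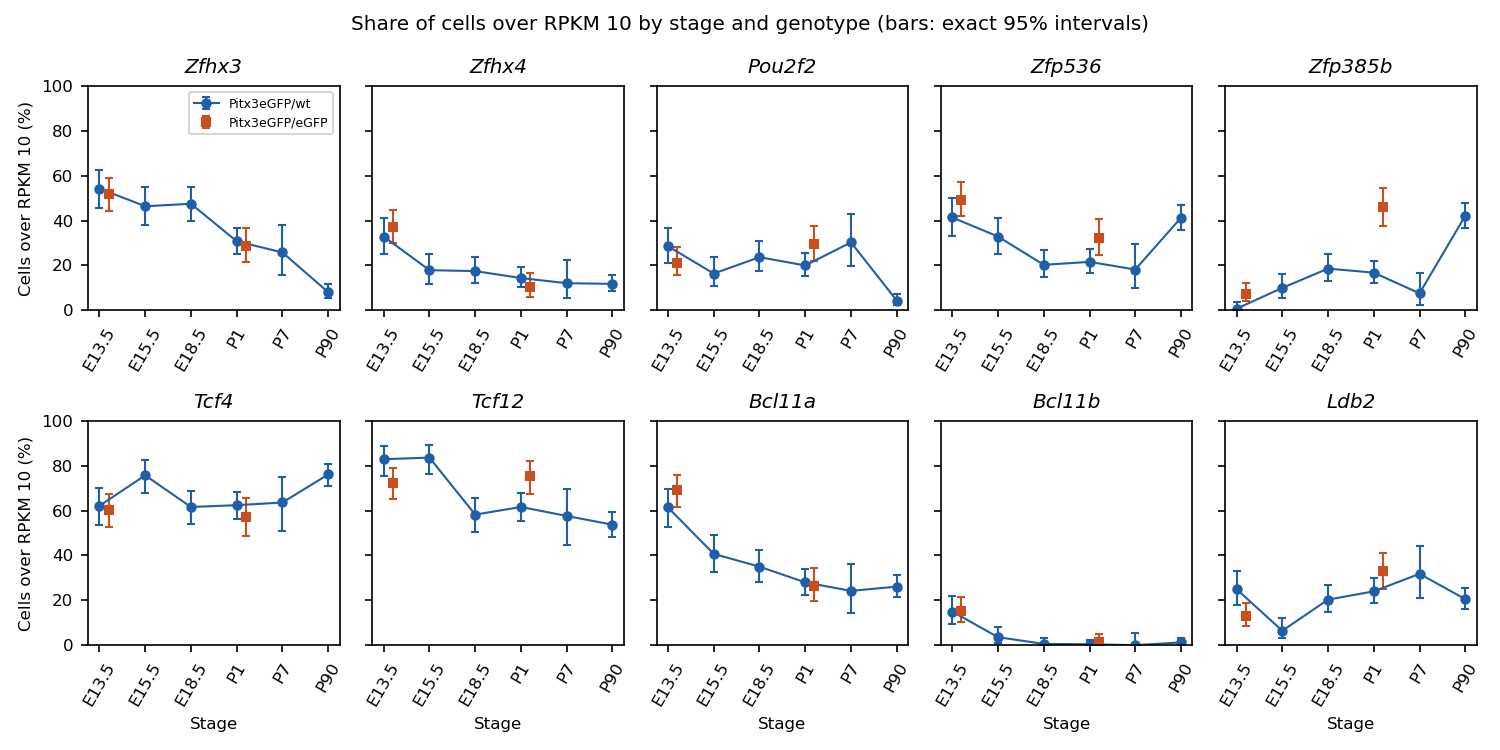
Share of kept cells with each of the 10 factors over 10 RPKM (vertical axis, percent) by stage, with 95% exact counting intervals as error bars, for Pitx3eGFP/wt and Pitx3eGFP/eGFP cells. Zfhx3 goes from 54.3% at E13.5 to 8.07% at P90 in heterozygous cells, while Zfp385b goes from 0.714% to 42.2%.

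The E protein genes were the most frequent of the 10 at every heterozygous stage, while in homozygous cells at E13.5 Bcl11a (69.1%) came before Tcf4 (60.1%). Tcf4 lies at 69343356 to 69689079 on the plus strand of chromosome 18. Tcf4 was present in 57.3 to 76.1% of cells in every group, with 62.1, 75.7, 61.6, 62.4, 63.6 and 76.1% of heterozygous cells in stage order. Tcf12 was present in 82.9% of cells at E13.5 and 83.6% at E15.5, then in 58.2% at E18.5 and 53.7% at P90 (48.1 to 59.3%). The step in Tcf12 from E15.5 to E18.5 was -25.4 points (-34.4 to -15.5), and its mean level went from 269.2 to 49.6 RPKM across that step and to 24.2 at P90. Spike-in RNA was absent at E15.5 and present at E18.5, and at heterozygous P1 Tcf12 was at 67.7% and a mean of 105.3 RPKM without it and at 51.1% and 41.2 RPKM with it, so stage and spike-in cannot be told apart at this step. From E13.5 to P90, Tcf4 differed by 13.9 points (4.87 to 23.3) and Tcf12 by -29.1 points (-36.8 to -20.2). Spike-in RNA was absent at E13.5 and present at P90, and Nxph4- or Gad2-high cells went from 35.7% to 68.9% of cells. Tcf4 was at 52% and 43.7% within Slc6a3-high cells and at 72% and 84.7% within Nxph4- or Gad2-high cells. The part of age, spike-in and mix in these differences was not tested. Left-out glial and vascular cells held Tcf4 in 75.5% and Tcf12 in 59.2%, so neither gene is particular to these neurons.

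The remaining 4 genes were most frequent at E13.5 or showed no steady course. Bcl11a went from 61.4% at E13.5 (52.8 to 69.5%) to 40.7% at E15.5 and 26.1% at P90. Bcl11b, its close relative, was present in 15% (9.53 to 22%) of E13.5 cells and 3.57% of E15.5 cells, then in at most 1.24% at later heterozygous stages. At P7 Bcl11b passed in 0 of 66 cells, which allows a share of up to 4.55%. Zfhx4 went from 32.9% at E13.5 to 17.9% at E15.5 and 11.8% at P90 (8.49 to 15.8%). The left-out cells, mostly from P1 and P7, stood at 10.3%. Ldb2 moved up and down, with shares in stage order of 25, 6.43 (2.98 to 11.9), 20.3, 24, 31.8 and 20.5%. Its dip at E15.5 exceeded counting error on both sides (-18.6 points, -26.9 to -10.2, and 13.9 points, 6.41 to 21.1), and the left-out cells were above every heterozygous stage, at 36.5%. The rise after E15.5 came with the start of spike-in use, and at heterozygous P1 Ldb2 was at 31.5% with spike-in RNA and 19.6% without.

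To ask how strictly the opposed pairs were kept apart, each cell was placed in 1 of 4 states: Zfhx3 or Pou2f2 alone, Zfp536 or Zfp385b alone, members of both pairs, or none of the 4. At E13.5, 42.1% of cells held Zfhx3 or Pou2f2 alone, 23.6% Zfp536 or Zfp385b alone, 17.9% both (25 cells, 11.9 to 25.2%) and 16.4% none. At P1 these shares were 32.8%, 24%, 7.60% (19 cells, 4.64 to 11.6%) and 35.6%. At P90 they were 7.76%, 56.8%, 3.11% (10 cells, 1.50 to 5.64%) and 32.3%. The cells with members of both pairs thus made up, in stage order, 17.9, 15, 6.21, 7.60, 4.55 and 3.11% of cells. The share at P7 rests on 3 cells. With a limit of 1 RPKM the shares were 35% at E13.5, 20.4% at P1 and 21.1% at P90, so the lower share at P90 than at P1 holds at 10 RPKM and not at 1.

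Those shares are smaller than the product of the shares of each pair in every group, with products of 24.9% at E13.5, 12.8% at P1 and 6.51% at P90. No cell of any group held all 4 factors, which allows a share of up to 2.14% at E13.5 and 0.932% at P90. Part of the course with stage lies in the shares themselves, since Zfhx3 and Pou2f2 were rare at P90, and so the exclusion was measured within each stage. In heterozygous E13.5 cells the median was 2361076 reads with both pairs, 2273316 with Zfhx3 or Pou2f2 alone and 2379386 with Zfp536 or Zfp385b alone. Homozygous E13.5 cells with both pairs had fewer reads, 587190 against 779776 and 754829 in the same order. At heterozygous P90 they also had fewer, 1640856 against 1812234 and 1741659. At heterozygous P1 they had more, 1741852 against 1587911 and 1652192. The part of depth in the shares with both pairs was not tested.

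**Figure D2:**
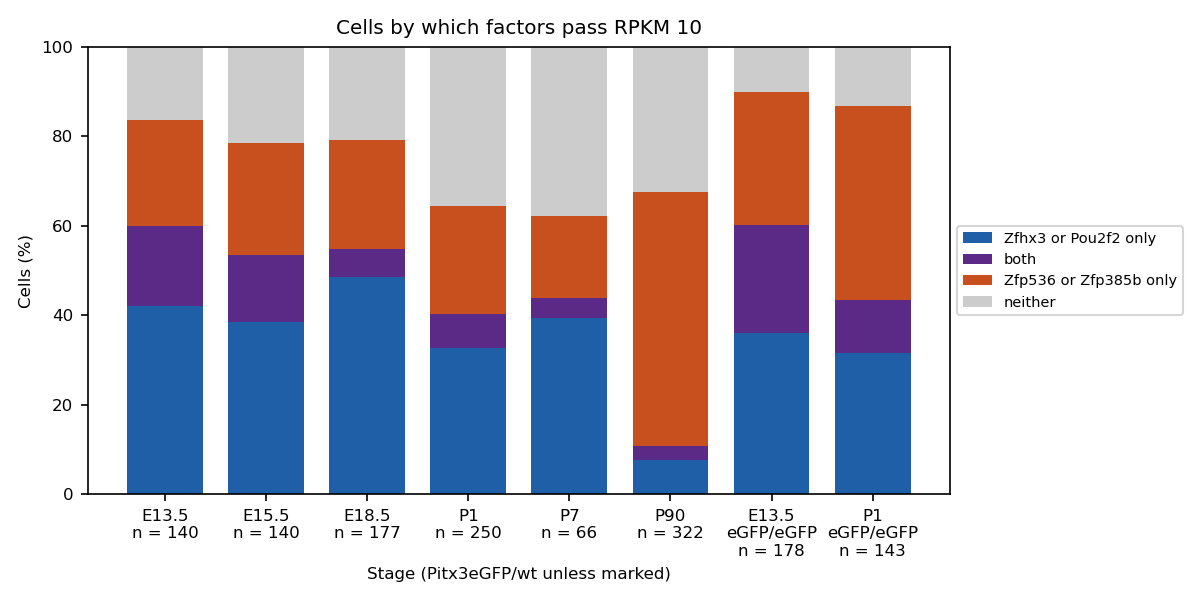
Percent of kept cells (vertical axis) in each of the 4 states, Zfhx3 or Pou2f2 alone, members of both pairs, Zfp536 or Zfp385b alone and none of the 4, stacked for each stage and genotype. Cells with members of both pairs over 10 RPKM make up 17.9% at E13.5 and 3.11% at P90 in heterozygotes, and 24.2% and 11.9% in homozygotes at E13.5 and P1.

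At E13.5, Zfp536 or Zfp385b was present in 29.8% of cells with Zfhx3 or Pou2f2 and in 58.9% of cells without, a difference of -29.2 points (-43.9 to -12.4). The later differences, in stage order, were -25.8 (-40.4 to -9.55), -42.4 (-54.0 to -29.0), -21.5 (-31.7 to -9.94), -22.1 (-39.6 to -1.57) and -35.2 points (-48.6 to -17.7). Homozygous cells gave -34.5 points at E13.5 (-46.8 to -19.8) and -49.1 at P1 (-61.5 to -33.2). The whole interval lay below 0 in all 8 groups, which the choice of opposed factors in these cells favours, so the sizes are given as a description. Within single plates the interval included 0 on 1 homozygous E13.5 plate (-11.4 points, -43.1 to 29.4) and on 2 of the 4 P90 plates (-23.4 points, -51.9 to 10.3, and -10.3 points, -38.5 to 29.1).

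Among single factors, the widest opposition at E13.5, E18.5, P1 and P90 in heterozygotes was between Zfhx3 and Zfp536. Zfp536 was present in 25% of Zfhx3-positive and 60.9% of Zfhx3-negative cells at E13.5, in 4.76% and 34.4% at E18.5, in 5.19% and 28.9% at P1, and in 3.85% and 44.6% at P90. Across cells, Pearson's r of log2(RPKM + 1) for Zfhx3 and Zfp536 was -0.45 over the 140 cells of E13.5, -0.54 at E18.5, -0.38 over the 250 cells of P1 and -0.47 at P90, a description over cells that share libraries and depth. Zfp385b differed less by Zfhx3, at 9.09% against 20.2% at P1 (-11.1 points, -19.2 to -1.11) and 11.5% against 44.9% at P90 (-33.4 points, -42.8 to -15.1).

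Pou2f2 was less opposed to Zfp536 than Zfhx3 was at E13.5, P1 and P90, but not at P7. Zfp536 by Pou2f2 differed by -20.4 points at E18.5 (-29.1 to -7.59), but by -5.50 at E13.5 (-22.0 to 12.5), -12.0 in P1 cells (-21.0 to 0.979) and -5.84 at P90 (-26.0 to 20.2). At E15.5 the values by Pou2f2 and by Zfhx3 were -18.5 (-32.3 to 2.84) and -24.0 points (-37.8 to -8.48), and at P7 -18.9 (-33.5 to 2.22) and -8.64 (-24.4 to 15.6). At P90 only 14 cells held Pou2f2. Of these, 5 also held Zfp536 (35.7%, against 41.6% of the other cells), and Zfp385b stood at 35.7% against 42.5% (-6.82 points, -27.0 to 19.3).

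Within each pair, each factor was more frequent in cells that held its partner at P1 and P90, and at E13.5 for Zfhx3 and Pou2f2. Zfhx3 was present in 80% of Pou2f2-positive and 44% of Pou2f2-negative cells at E13.5 (36 points, 18.3 to 49.3), in 52% and 25.5% at P1 (26.5 points, 11.5 to 40.8), and in 35.7% and 6.82% at P90 (28.9 points, 9.23 to 54.5). Zfp536 was present in 40.5% of Zfp385b-positive and 17.8% of negative cells at P1 (22.7 points, 8.07 to 38.4) and in 55.9% and 30.6% at P90 (25.2 points, 14.3 to 35.4). At E15.5 neither pair showed this beyond counting error, with 12.1 points for Zfhx3 by Pou2f2 (-9.61 to 31.9) and -4.76 for Zfp536 by Zfp385b (-23.7 to 22.4). Double-positive cells changed sides with stage. Zfhx3 and Pou2f2 occurred together in 22.9% of cells at E13.5, 10.4% at P1 and 1.55% at P90, and Zfp536 and Zfp385b in 0.714%, 6.80% and 23.6%.

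Cells that held Zfhx3 and Zfp536 at the same time were few from E18.5 on. At E13.5 there were 19 such cells and at E15.5 13 (9.29%). At E18.5 there were 4, with Zfhx3 at 23.9, 15.9, 16.8 and 19.9 RPKM and Zfp536 at 21.4, 26.6, 16.2 and 13.1 RPKM in the same order, and the last 2 of these were Slc6a3-high (463.7 and 342.5 RPKM) while the second was Nxph4-high (532.7 RPKM). At P1 there were again 4, with Zfhx3 at 20.9, 33.4, 14.8 and 10.1 RPKM and Zfp536 at 48.1, 54.4, 53.2 and 53.8 RPKM. Among these P1 cells, 2 were Nxph4-high (578.4 and 351.9 RPKM) and the fourth held Gad2 at 978.9 RPKM, while Slc6a3 did not pass 37.2 RPKM in any of them. At P90 a single cell qualified, with Zfhx3 at 12.9 and Zfp536 at 13.4 RPKM and Gad2 at 807.3 RPKM. Whether such cells are doublets was not tested.

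The levels of the 4 factors in the states follow in part from the limit of 10 RPKM that defines them. At E13.5, 19 of the 25 cells with members of both pairs held Zfhx3. In these 25 the median Zfhx3 was 14.4 RPKM and the median Zfp536 62.1 RPKM, against 35.3 and 0 in cells with Zfhx3 or Pou2f2 alone and 0.281 and 77.3 in cells with Zfp536 or Zfp385b alone. Pou2f2 had a median of 25.5 RPKM in them.

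**Figure D3:**
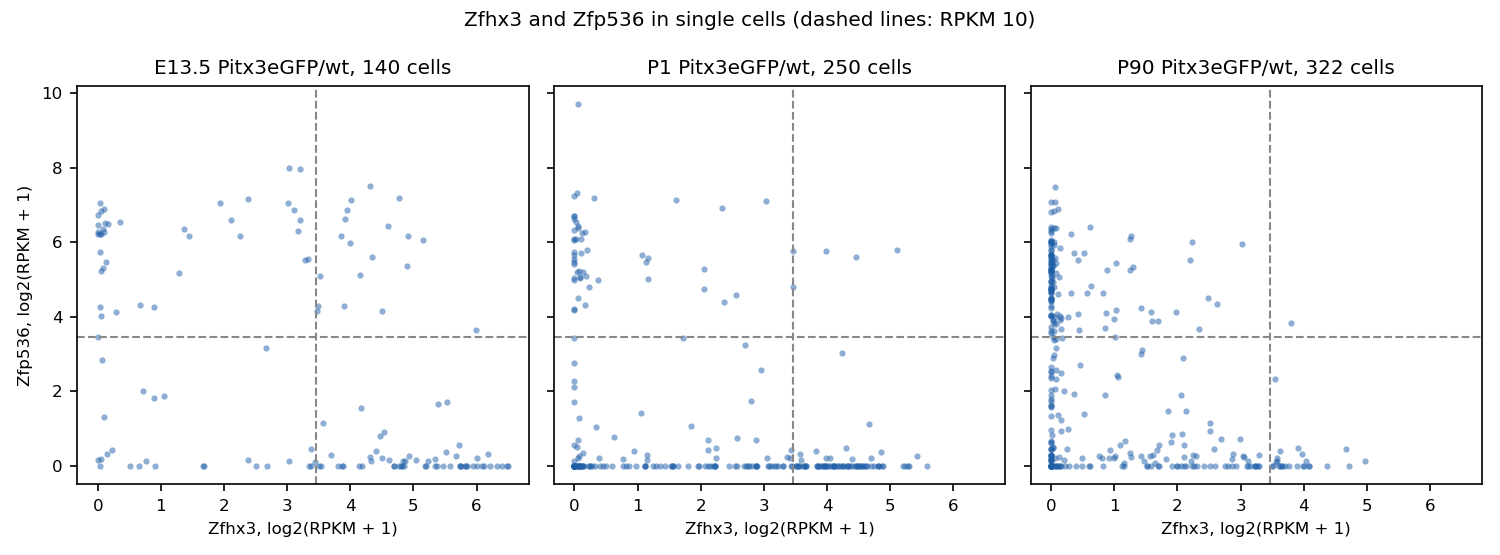
Zfhx3 (horizontal axis) against Zfp536 (vertical axis) in single heterozygous cells, both as log2(RPKM + 1), 1 point a cell, with lines at the limit of 10 RPKM. Cells over both limits number 19 at E13.5, 4 at P1 and 1 at P90.

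The states were set beside the markers of the branches. The 4 factors were chosen for their levels on these branches in the same cells, so the agreement is no separate evidence. At P1, Slc6a3 passed 150 RPKM in 52.4% of cells with Zfhx3 or Pou2f2 alone and in 10% of cells with Zfp536 or Zfp385b alone, Nxph4 in 3.66% and 35%, and Th, the rate-limiting enzyme of dopamine synthesis, in 87.8% and 33.3%. At P90 the same shares were 68% and 4.92% for Slc6a3, 4% and 73.2% for Nxph4, and 100% and 37.7% for Th. Slc17a6, the glutamate transporter VGLUT2, was over 10 RPKM in 64% of the P90 cells with Zfhx3 or Pou2f2 alone, 99.5% of those with Zfp536 or Zfp385b alone and all 10 with both. The 19 P1 cells with both pairs were mixed, with Slc6a3 over 150 RPKM in 31.6%, Nxph4 in 42.1% and Slc17a6 over 10 RPKM in 94.7%. The E protein genes went with the Zfp536 side: median Tcf4 was 12.4 RPKM in cells with Zfhx3 or Pou2f2 alone and 73 with Zfp536 or Zfp385b alone at P1, and 5.59 and 80.2 at P90.

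Against the background of all genes, entries with a mean of at least 1 RPKM in either set of cells were compared between all cells with Zfhx3 or Pou2f2 and cells with Zfp536 or Zfp385b alone. At P1, 10.5% of 15743 entries were at least 2-fold higher in the first and 13.0% in the second, and at P90 8.99% and 13.0% of 15136. Of the 9 members measured, 2 were 2-fold higher in the first and 4 in the second at both stages, but 4 of these 6 defined the groups. The other 2 were the E protein genes: mean Tcf4 was 52.8 against 124.5 RPKM at P1 and 41.8 against 109.2 at P90, and mean Tcf12 56.1 against 139.3 at P1 and 14.3 against 29.2 at P90. Zfhx4, Bcl11a and Ldb2 did not reach 2-fold.

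Each stage was then split by marker genes: Slc6a3-high cells (over 150 RPKM), and Nxph4- or Gad2-high cells (either over 150 RPKM with Slc6a3 not over it). They made up 17.9% and 35.7% of cells at E13.5, 41.2% and 27.2% at P1, and 22% and 68.9% at P90, and the other cells fell in neither. The limit is a cut through a range: 19 cells at P1 and 7 at P90 had Slc6a3 between 100 and 200 RPKM. Since the members were chosen for this difference, the values describe it.

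Of the 10 genes, Zfp536 made the widest split at P1 and P90, and at E13.5 one as wide as that of Zfhx3. It was present in 4% of Slc6a3-high and 68% of Nxph4- or Gad2-high cells at E13.5 (-64.0 points, -75.7 to -43.2), in 0.971% and 55.9% at P1 (-54.9 points, -66.1 to -42.3), and in 0 of 71 cells, which allows up to 4.23%, and 57.7% at P90 (-57.7 points, -64.0 to -49.3). At P90 the lowest, median and highest Zfp536 values were 0, 0 and 4.03 RPKM in Slc6a3-high cells and 0, 14.4 and 178.8 in the others. The 2 sets overlapped at values up to 4.03 RPKM. Thinned to 100000 reads, the P90 shares were 0 and 55%.

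Zfhx3 was split the other way, by fewer percentage points at P1 and P90 than at E13.5. The gap in points depends on the limit of 10 RPKM, which Zfhx3 neared with age. Its mean levels in the 2 classes were 36.8 and 8.61 RPKM at E13.5 and 6.52 and 0.566 at P90. The gap in RPKM was thus smaller in the adult, while the ratio of the 2 means was not. It was present in 88% of Slc6a3-high and 24% of Nxph4- or Gad2-high cells at E13.5 (64 points, 41.6 to 76.5), 38.8% and 10.3% at P1 (28.5 points, 15.6 to 39.5), and 28.2% and 0.450% at P90 (27.7 points, 18.4 to 39.1). At P90 its lowest, median and highest values were 0, 4.72 and 25.2 RPKM in Slc6a3-high cells and 0, 0.0182 and 12.9 in the others. The typical adult Slc6a3-high cell thus held Zfhx3 reads under the limit of 10 RPKM, and the typical Nxph4- or Gad2-high cell next to none. Thinned shares at P90 were 23.9% and 0.450%.

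Pou2f2, the partner of Zfhx3, was split beyond counting error at P7 alone among heterozygous stages, by 39.1 points (13.4 to 59.2) with 23 Slc6a3-high and 16 Nxph4- or Gad2-high cells, and in homozygous cells at P1 by 27 points (3.83 to 52.2). The difference was 16 points at E13.5 (-4.45 to 37.4), 10.6 at P1 (-0.595 to 20.5) and 4.79 at P90 (-0.154 to 13.3). Mean Pou2f2 in heterozygous Slc6a3-high and Nxph4- or Gad2-high cells was 18.5 and 11.4 RPKM at E13.5. It was 9.09 and 2.79 at P1, and 2.24 and 0.610 at P90. Zfp385b was present in 10.7% of Slc6a3-high and 29.4% of Nxph4- or Gad2-high cells at P1 (-18.7 points, -31.3 to -6.67) and in 18.3% and 51.8% at P90 (-33.5 points, -43.2 to -21.1). At P1 and P90 Zfp385b was thus also found on the Slc6a3-high side, where Zfp536 was nearly missing. At E18.5 both were rare there, with Zfp536 in 4 and Zfp385b in 3 of 75 Slc6a3-high cells. All 13 Slc6a3-high cells with Zfp385b at P90 were Aldh1a1-high, with Zfp385b between 13.8 and 52.1 RPKM, Aldh1a1 between 1623 and 14838 RPKM and Zfp536 at no more than 0.208 RPKM.

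**Figure D4:**
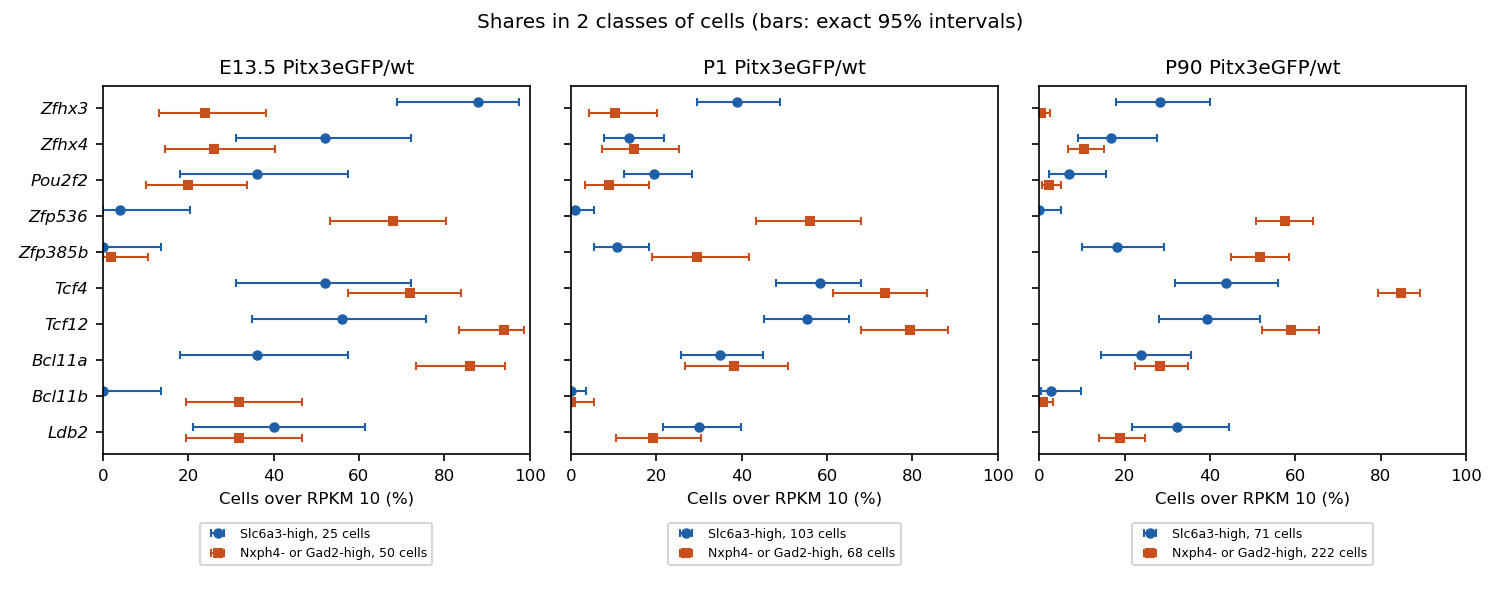
Share of cells with each factor over 10 RPKM (horizontal axis, percent) in Slc6a3-high and in Nxph4- or Gad2-high heterozygous cells at E13.5, P1 and P90, with 95% exact counting intervals. Zfp536 is at 0 in Slc6a3-high and 57.7% in Nxph4- or Gad2-high cells at P90, while Zfhx3 is at 28.2% and 0.450%.

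The other 6 genes differed by class in their own ways. Tcf12 was lower in Slc6a3-high cells at all 3 stages: 56% against 94% at E13.5 (-38.0 points, -57.3 to -17.9), 55.3% against 79.4% at P1 (-24.1 points, -36.5 to -9.67) and 39.4% against 59% at P90 (-19.6 points, -31.8 to -6.22). Tcf4 stood apart most in the adult, with 43.7% against 84.7% (-41.0 points, -52.7 to -28.3) and mean levels of 15.9 against 108.2 RPKM. Bcl11a and Bcl11b differed at E13.5, with 36% against 86% (-50.0 points, -67.3 to -27.0) and 0 of 25, which allows up to 12%, against 32% (-32.0 points, -45.8 to -14.6). By P90 the interval of Bcl11a included 0 (-4.43 points, -14.9 to 7.96). In homozygous P1 cells Bcl11a was higher in Slc6a3-high cells, at 60% of 15 against 24.1% of 54 (35.9 points, 8.47 to 58.2). Zfhx4 went with Slc6a3 at E13.5 only among these stages, 52% against 26% (26 points, 3.07 to 46.6), and the difference was -1.11 points at P1 and 6.54 at P90, both with 0 in the interval. Ldb2 was at 32.4% against 18.9% at P90 (13.5 points, 2.21 to 25.9).

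Over all entries measured, 10.1% of 15467 were at least 2-fold higher in Slc6a3-high cells at P1 and 13.0% in Nxph4- or Gad2-high cells, and at P90 the shares were 7.45% and 14.3% of 14903. Of 9 members measured, 2 were 2-fold higher in the first and 4 in the second at P1, and 3 and 3 at P90. The members were picked for this contrast, so nothing is read from these counts. Their median log2 ratio was -0.82 at P1 and -0.50 at P90, against -0.05 and -0.12 for all entries.

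Within the Nxph4- or Gad2-high class, the cells of each marker differed from each other at P90 chiefly in Tcf4 and Ldb2. They were compared here in cells that passed for 1 of these markers and not the other. At P90, Tcf4 was present in every Nxph4-high cell (100%, 97.5 to 100%) and in 24 of 57 Gad2-high cells (42.1%), a difference of 57.9 points (44.7 to 69.8), with mean levels of 139.1 and 40.3 RPKM. Ldb2 went the other way, in 4.86% and 52.6% (-47.8 points, -60.4 to -34.2), with mean levels of 1.65 and 22 RPKM. A further 21 cells passed for both markers.

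The same opposition was measured at E13.5, E18.5 and P1 and in homozygous P1 cells. Tcf4 was present in 84.2% of 38 Nxph4-high and 33.3% of 12 Gad2-high cells at E13.5 (50.9 points, 19.6 to 72.1) and in 88.6% of 35 and 55.2% of 29 at P1 (33.4 points, 11.5 to 52.3). At E15.5 the interval for Tcf4 included 0 (10 points, -6.98 to 40.4), with 22 and 10 cells. Ldb2 was present in 21.1% and 66.7% at E13.5 (-45.6 points, -67.5 to -14.1) and in 5.71% and 37.9% at P1 (-32.2 points, -50.7 to -12.3). The interval for Ldb2 included 0 at E15.5 (-10.0 points, -40.4 to 6.98) and in homozygous E13.5 cells (-16.4 points, -53.8 to 9.93). At P7 the sign for Ldb2 was the opposite, with 8 and 7 cells (19.6 points, -25.6 to 55.7). In homozygous P1 cells, Tcf4 was present in 24 of 24 Nxph4-high and 43.3% of 30 Gad2-high cells (56.7 points, 34.4 to 72.6), and Ldb2 in 12.5% and 46.7% (-34.2 points, -53.2 to -9.42). Zfp536 and Zfp385b leaned to the Nxph4-high side in the adult, at 65.3% against 45.6% (19.7 points, 4.53 to 33.9) and 59.7% against 29.8% (29.9 points, 14.7 to 42.7). Over all P90 cells Tcf4 was present in 40.9% of Ldb2-positive and 85.2% of Ldb2-negative cells (-44.2 points, -55.9 to -31.3).

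Among Slc6a3-high cells, the same 2 genes separated those with Aldh1a1 over 150 RPKM from those with neither Aldh1a1 nor Vip over it. Ldb2 was present in 16.9% of 59 Aldh1a1-high and 56.8% of 37 other cells at P1 (-39.8 points, -56.2 to -20.2) and in 11.4% of 35 and 60% of 30 at P90 (-48.6 points, -65.5 to -25.7). Tcf4 was present in 71.2% and 40.5% at P1 (30.6 points, 10.3 to 48) and in 57.1% and 26.7% at P90 (30.5 points, 6.36 to 49.9). Tcf12 went with Tcf4, at 67.8% and 43.2% at P1 (24.6 points, 4.25 to 42.5) and 57.1% and 23.3% at P90 (33.8 points, 9.83 to 52.6). At P1 and P90, Tcf4 and Ldb2 thus sat on opposite sides on both branches. Before P1 and at P7 this was not so for both genes: at E15.5 the differences were 0.290 points for Ldb2 (-21.1 to 26.3) and -5.22 for Tcf4 (-34.3 to 23.4), at E18.5 -14.3 for Ldb2 (-34.1 to 5.79) and 22.7 for Tcf4 (0.209 to 42.8), and at P7 -58.3 for Ldb2 (-83.0 to -12.8) and 8.33 for Tcf4 (-32.6 to 46.7).

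Zfhx3 was lower in the Aldh1a1-high cells at E15.5, E18.5 and P7. At E15.5 it was present in 33.3% of them and 87% of those without Aldh1a1 or Vip (-53.6 points, -73.7 to -22.2), and at E18.5 in 35.9% and 80.6% (-44.7 points, -61.4 to -21.7). At P7 it was in 1 of 12 and 3 of 6 cells (-41.7 points, -73.6 to -0.341). The difference was -17.1 points at P1 (-35.7 to 2.37) and -10.5 at P90 (-31.4 to 11), within counting error. No Slc6a3-high cell was Aldh1a1-high at E13.5. Zfp385b at P90 was present in 13 of 35 Aldh1a1-high cells and 0 of 30 of the others, which allows up to 10% (37.1 points, 19.1 to 53.7).

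Vip-high cells (over 150 RPKM) among the Slc6a3-high cells were few, and at P1 and P7 all of them held Pou2f2. At P1, all 7 held Pou2f2, at 59.1, 49.7, 90.0, 28.7, 43.9, 35.5 and 102.9 RPKM, and 6 of the 7 held Zfhx3. At P7 all 5 held Pou2f2, at 10.7, 24.9, 60.9, 14.3 and 19.5 RPKM. At E18.5 it was 2 of 5, with values of 0.979, 124.1, 0, 0 and 11.8 RPKM, and at P90 1 of 6, with values of 0, 0, 9.86, 1.74, 12.2 and 4.70 RPKM. These counts are too small for more than the single values.

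Within a class, the exclusion of the 2 pairs did not exceed counting error at P1 and P90, which does not show that it was absent. Among Slc6a3-high cells the share with Zfp536 or Zfp385b differed by Zfhx3 or Pou2f2 by 1.13 points at P1 (-11.7 to 14.5) and 1.05 at P90 (-16.1 to 23.6). Zfp536 was present in only 0.971% of these cells at P1 and in 0 of 71 at P90, so its exclusion there could hardly be measured. The share compared was nearly all Zfp385b. Among Nxph4- or Gad2-high cells it differed by 7.41 points at P1 (-21.9 to 29.8) and 23.6 at P90 (-15.8 to 29.7), the last with 6 cells holding Zfhx3 or Pou2f2. At E18.5 it was -50.9 points in that class (-78.3 to -15.9), with 3 of 7 against 30 of 32 cells, and it came from 4 Gad2-high cells with Zfhx3 or Pou2f2: the Gad2-high cells gave -95.0 points (-99.1 to -42.6) and the Nxph4-high cells 7.69 (-48.8 to 33.3). In cells of neither class the difference was -28.7 points at E18.5 (-50.2 to -6.58), -39.7 at P1 (-55.8 to -19.8) and -42.9 at P90 (-63.5 to -5.57). At P1 and P90 the exclusion over all cells was thus measured between the classes and among the unassigned cells. Among heterozygous stages it was measured within a class only at E18.5, in those Gad2-high cells.

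The loss of Pitx3 was compared at E13.5 and P1, with homozygous minus heterozygous shares. Zfp385b was the member with the widest difference at P1, present in 46.2% of homozygous cells (37.8 to 54.7%) and 16.8% of heterozygous cells (12.4 to 22%). The difference was 29.4 points (19.9 to 38.5), and the mean level was 26.8 against 8.97 RPKM, a log2 ratio of 1.58. Thinned to 100000 reads the difference was 27.5 points, and against the heterozygous plate with spike-in RNA it was 29.8 points (17.9 to 40.1). The 2 homozygous plates gave 45.8% and 46.5%. At E13.5 it was 7.30% against 0.714% (6.59 points, 2.20 to 11.4), 13 cells against 1.

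The Zfp385b difference at P1 was measured outside the Slc6a3-high class. In Nxph4- or Gad2-high cells it was present in 57.4% of homozygous and 29.4% of heterozygous cells (28 points, 10.3 to 43.5), and in cells of neither class in 45.9% and 13.9% (32 points, 17.7 to 44.8). In Slc6a3-high cells, of which homozygotes held 15, it was 6.67% and 10.7% (-4.01 points, -13.3 to 19.6). The differences of these 3 values were not tested. Slc6a3-high cells made up 10.5% of homozygous and 41.2% of heterozygous cells at P1, so shares over all cells also carry that shift.

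Zfp536 was present in 32.2% of homozygous and 21.6% of heterozygous P1 cells (10.6 points, 1.58 to 19.9), with a mean level of 17.6 against 16.3 RPKM. Against the heterozygous plate with spike-in RNA the Zfp536 difference was 18 points (6.92 to 27.9) and the mean 17.6 against 7.94 RPKM. Within Nxph4- or Gad2-high cells the Zfp536 difference was -0.327 points and within cells of neither class 2.63, so the difference over all cells was not measured within either. Tcf12 was present in 75.5% against 61.6% at P1 (13.9 points, 4.32 to 22.7) with a lower mean, 66.9 against 81.7 RPKM. Against the spike-in plate the Tcf12 difference was 24.4 points (11.9 to 36.3) and the mean turned, at 66.9 against 41.2 RPKM. At E13.5 the Tcf12 share was the other way, 72.5% against 82.9% (-10.4 points, -19.2 to -1.07), with 70.8% against 94% in Nxph4- or Gad2-high cells (-23.2 points, -35.8 to -9.18) and 74.1% against 84.6% in cells of neither class (-10.5 points, -21.6 to 2.37). All homozygous and no heterozygous E13.5 cells had spike-in RNA, so genotype and spike-in cannot be told apart at that stage. At heterozygous P1, Tcf12 was at 51.1% with spike-in RNA and 67.7% without. Ldb2 was present in 12.9% against 25% at E13.5 (-12.1 points, -20.9 to -3.46), with 16.3%, 0 of 22 cells (which allows up to 13.6%) and 12.9% on the 3 homozygous plates. Within classes the E13.5 interval of Ldb2 included 0, at -13.5 points in Nxph4- or Gad2-high cells (-29.3 to 2.25) and -4.02 in cells of neither class (-15.3 to 5.39), and Slc6a3-high cells, 40% of which held Ldb2 in heterozygotes, made up 17.9% of heterozygous and 0.562% of homozygous cells. At P1 Ldb2 was present in 32.9% against 24% (8.87 points, -0.263 to 18.3), and against the spike-in plate the difference was 1.35 points (-11.0 to 13.1).

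For the genes of the Slc6a3-high side, differences are given over all cells and within the class, and were not tested against each other. Over all cells, Zfhx3 was at 51.7% against 54.3% at E13.5 (-2.60 points, -13.4 to 8.37) and 28.7% against 30.8% at P1 (-2.13 points, -11.2 to 7.43), or -10.5 points against the spike-in plate (-22.7 to 1.77). Among Slc6a3-high cells at P1, Zfhx3 was present in 66.7% of 15 homozygous and 38.8% of heterozygous cells (27.8 points, 1.08 to 48), an interval that included 0 after thinning (22.1 points, -3.96 to 44.1), and Zfhx3 or Pou2f2 in 80% and 47.6% (32.4 points, 5.49 to 48.4). Pou2f2 over all cells was at 21.3% against 28.6% at E13.5 (-7.22 points, -16.8 to 2.27), with means of 12.5 and 23.4 RPKM. The sign was the opposite at P1, at 29.4% against 20% (9.37 points, 0.653 to 18.5), an interval that included 0 after thinning (7.37 points, -1.08 to 16.3) and did not against the spike-in plate (16.3 points, 5.50 to 25.9). Within Slc6a3-high cells at P1 the Pou2f2 difference had the same sign, with 0 in the interval (20.6 points, -1.38 to 45.7). Over all cells the intervals of Zfhx4, Tcf4, Bcl11a and Bcl11b included 0 at both stages, which does not show that the genotypes are alike. Among Slc6a3-high cells at P1, Tcf4 was present in 4 of 15 homozygous cells (26.7%) and 58.3% of heterozygous cells (-31.6 points, -49.8 to -4.52, and -28.7 thinned, -46.9 to -1.62). The class was made up differently in the genotypes: 5 of its homozygous cells were Aldh1a1-high and 10 had neither Aldh1a1 nor Vip, against 59 and 37 of its heterozygous cells, and Tcf4 and Zfhx3 both varied between those subgroups, so their part in these within-class differences was not tested.

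Taken as pairs at P1, Zfhx3 or Pou2f2 was present in 43.4% of homozygous and 40.4% of heterozygous cells (2.96 points, -7.03 to 13.0), and Zfp536 or Zfp385b in 55.2% and 31.6% (23.6 points, 13.5 to 33.2). Cells with members of both pairs made up 11.9% and 7.60% (4.29 points, -1.58 to 11.2), or 16.2% and 5.06% within cells of neither class (11.2 points, 1.29 to 21.6), and over all cells at E13.5 24.2% and 17.9% (6.30 points, -2.86 to 15.0). Against the 22 P1 cells of neither class on the heterozygous spike-in plate, the interval included 0 (16.2 points, -0.0849 to 26.2). For the same state at P1 the difference was -5.83 points in Nxph4- or Gad2-high cells (-16.8 to 6.02). In Slc6a3-high cells it was 0.841 (-7.51 to 24.2). In the 15 homozygous Slc6a3-high cells at P1, Zfhx3 was present in 66.7%, against 1.85% of the 54 homozygous Nxph4- or Gad2-high cells (64.8 points, 38.6 to 83), so the split by class remained measurable without Pitx3.

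**Figure D5:**
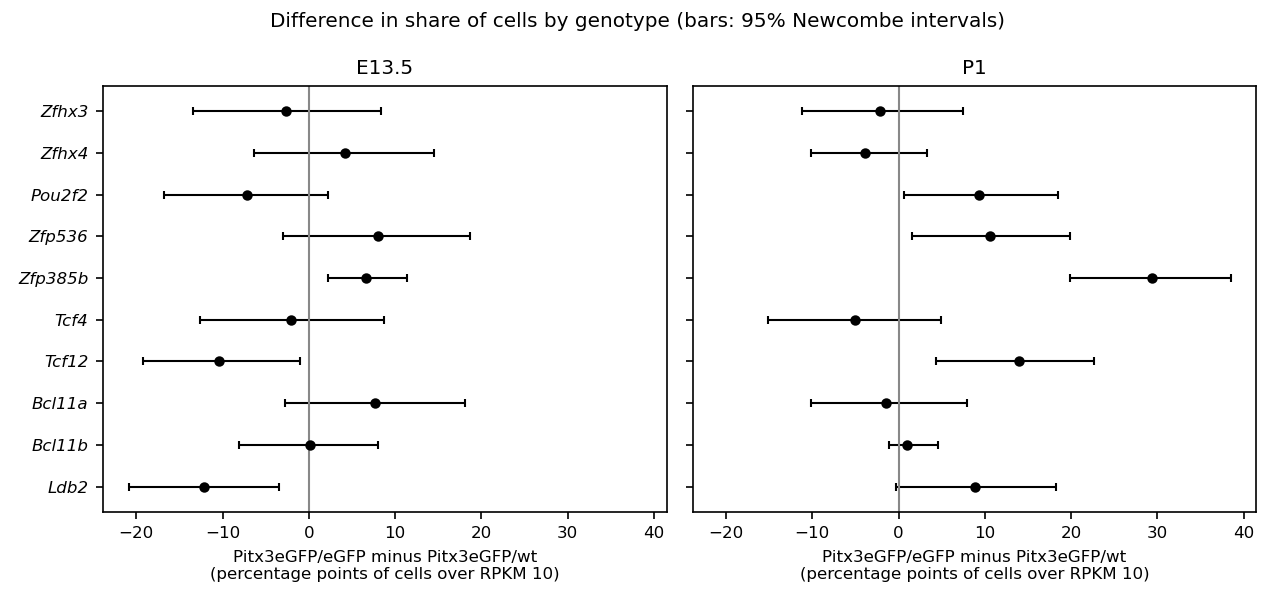
Share of Pitx3eGFP/eGFP cells minus share of Pitx3eGFP/wt cells over 10 RPKM (percentage points) for each of the 10 factors at E13.5 and P1, with 95% Newcombe intervals. Zfp385b stands at 29.4 points at P1, and its interval is clear of 0 at both stages.

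Over all entries, 7.77% of 14559 were at least 2-fold higher in homozygous cells at E13.5 and 9.01% in heterozygous cells, and at P1 5.50% and 7.07% of 15352. All 10 members were measured at E13.5, where Zfp385b was 2-fold higher in homozygous and Ldb2 in heterozygous cells, and 9 at P1, where Zfp385b was 2-fold higher in homozygous cells and none in heterozygous cells. The shares of members, 1 of 10 each way and 1 of 9, are near the background.

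Related genes were counted the same way, from lists of family members and partners. Of 10 BAF subunits, the complex with which Bcl11 proteins occur, all were measured, and none reached 2-fold by genotype at either stage or by class at P90, while 1 was higher in Nxph4- or Gad2-high cells at P1. Of 5 paralogues of the members measured, none reached 2-fold by genotype or by class at P90, and by class at P1 1 did so each way. Among 12 partners of the E proteins, 8 were measured by class at P90, 1 of them 2-fold higher in Slc6a3-high and 5 in Nxph4- or Gad2-high cells, against 7.45% and 14.3% of all entries, with a median log2 ratio of -1.14. By class at P1 5 were measured, 2 each way, and by genotype 11 at E13.5 (1 each way) and 9 at P1 (2 higher in homozygous cells). Over all entries the corresponding shares, in the order given, were 10.1% and 13.0% by class at P1, 7.77% and 9.01% by genotype at E13.5, and 5.50% and 7.07% at P1. Id2, which blocks E proteins, had a mean of 5.41 RPKM in Slc6a3-high and 63.1 in Nxph4- or Gad2-high cells at P1, and 5.21 and 22.8 at P90, so it was higher where Tcf4 and Tcf12 were. Neurod6, a proneural-type partner, was higher in Slc6a3-high cells, at 31.1 against 1.33 RPKM at P1 and 30.6 against 0.201 at P90, in 29.6% and 0.450% of the P90 cells, and so was the Id gene Id4 at P1, at 15.9 against 4.32 RPKM.

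The 13 LIM factors and cofactors that bind Ldb proteins went both ways by class, with 11 measured at P1 (3 higher in Slc6a3-high, 4 in Nxph4- or Gad2-high cells) and 10 at P90 (2 and 2). Lmx1a, a LIM homeodomain factor of the dopamine lineage, had means of 38.4 and 94.6 RPKM at P1 and 8.41 and 31.9 at P90. Lmo2 stood at 1.21 and 12.1 RPKM at P90, and the cofactor Ssbp3 at 24.1 and 10.9. By genotype, 4 of 13 were 2-fold higher in homozygous cells at E13.5 and 1 in heterozygous cells, and at P1 0 and 4 of 12, against 7.77% and 9.01% of all entries at E13.5 and 5.50% and 7.07% at P1. Of the other POU factors, 7 were measured at E13.5 by genotype (3 higher in homozygous, 1 in heterozygous cells), 6 at P1 (2 and 1), 5 by class at P1 (1 and 0) and 6 at P90 (2 and 1), beside the same shares by genotype and 10.1% and 13.0% of all entries by class at P1 and 7.45% and 14.3% at P90.

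Between cells with Zfhx3 or Pou2f2 and cells with Zfp536 or Zfp385b alone, 8 E protein partners were measured at each stage, with 2 and 3 at least 2-fold higher at P1 and 1 and 3 at P90, against 10.5% and 13.0% of all entries at P1 and 8.99% and 13.0% at P90. Neurod1, a proneural-type factor that pairs with E proteins, was on the Zfp536 side, at 11.4 against 47.9 RPKM at P1 and 0.724 against 9.14 at P90. Of the LIM list, 5 of 11 were higher with Zfhx3 or Pou2f2 and 1 with Zfp536 or Zfp385b alone at P1, and 3 and 2 of 9 at P90. Lmx1b was on the Zfhx3 side at both stages, at 16.1 against 5.72 RPKM at P1 and 9.44 against 4.52 at P90. The paralogues gave 2 and 1 of 6 at P1, with Zfhx2 at 8.46 against 3.16 RPKM and Ldb1 at 32.6 against 13.3, and 1 and 0 of 6 at P90. Other POU factors gave 1 and 0 at both stages, and BAF subunits 0 and 0 at P1 and 1 and 0 at P90.

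Genes most like each of the 4 paired factors were sought among 9693 entries present in at least 10% of cells at E18.5, P1 and P90, by r of log2(RPKM + 1) over the cells of each of those stages. The closest genes were ranked by the smallest of their r values over these stages, and the furthest by the largest. These r values describe cells that share libraries and depth. Closest to Zfhx3 were Tmem255a (0.61, 0.51 and 0.47) and Dlk1 (0.62, 0.46 and 0.59), with Slc10a4 and the dopamine receptor gene Drd2, and furthest were Zfp536 itself (-0.54, -0.38 and -0.47) and Nfia (-0.48, -0.45 and -0.38), a nuclear factor I gene. For Pou2f2, Drd2 ranked first by that rule (0.36, 0.35 and 0.23), while Dlk1 was higher at E18.5 and P1 (0.38, 0.39 and 0.21). Zfp536 was closest to Nxph4 (0.41, 0.42 and 0.49) and Nfia (0.43, 0.49 and 0.40) and least like Slc10a4 (-0.55, -0.52 and -0.62) and Th (-0.58, -0.51 and -0.54). Zfp385b was also closest to Nxph4 (0.35, 0.30 and 0.40) and Nfia (0.44, 0.30 and 0.40), and Zfp536 was among its 5 nearest.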

How the data were processed

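Smart-seq2 libraries of single sorted cells were aligned with STAR to mm10, per the submitters' processing notes. The authors kept reads that mapped to 1 place and deposited read counts and RPKM values per Ensembl gene for each cell, so near-identical copies of a gene lose reads. Spike-in entries were not used here. RPKM divides by gene length and mapped reads, so few reads in a shallow cell can pass a limit. In 45 values a gene with reads had an RPKM of 0.

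Groups came from the sample labels. Cells needed over 100000 reads and 15% (P90: 3.4%) of 31526 entries with a read. Cells with 3 or more markers of an oligodendrocyte, astrocyte, microglial or vascular list over 10 RPKM were left out (233 in all, 113 at P7). The cells kept in heterozygotes were 140 at E13.5, 140 at E15.5, 177 in E18.5 tissue, 250 at P1, 66 for P7 and 322 for P90, and in homozygotes 178 at E13.5 and 143 at P1. At P90 the Slc6a3-high, Nxph4- or Gad2-high and solely Nxph4-high cells numbered 71, 222 and 144. Doublets were not called. Gene symbols were matched to GENCODE identifiers (38130 of 39468 entries, with 0.211% of reads unmatched, 10 of 10 members). No 2 cells had identical counts. Depth was 100007 to 8634201 reads (median 1627906).

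Shares carry exact Clopper-Pearson intervals and differences Newcombe intervals, both 95% and for counting error only. A share of 0 allows up to 3 counts of the total. Comparisons over all genes used means of RPKM, a limit of 2-fold and a mean of at least 1 RPKM in either group. Correlations used a pseudocount of 1, and 45 pairs of members were computed. With 1 sample a group, no test was run. The members, gene lists and cell classes were chosen with earlier results of these data known. The genes named were the 10 members in full, genes of the fixed lists, and the 5 most and 5 least like each paired factor. Single cells and the list genes singled out were chosen after their values were seen. Alternatives were limits of 1 and 50 RPKM, thinning of the deposited counts to 100000 reads, other cell filters, plates left out and spike-in cells alone. Leaving out the 10% of cells with most entries detected and taking classes alone were added after seeing the data. Scripts were tested on simulated data. Python 3.11.15, numpy 2.4.6, pandas 2.3.3, scipy 1.17.1 and matplotlib 3.10.9 were used.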

Additional observations from a re-analysis of the deposited data

Results flagged for a closer look

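The cells left out for glial or vascular markers took no part in the comparisons, and 3 values in heterozygous ones lay above those of the kept neurons of the same stage. Tcf4 was present in 76.9% of 65 left-out heterozygous cells at P1, against 62.4% of kept cells (14.5 points, 1.59 to 25.1). In homozygous P1 cells it was not, at 56.4% of 39 left-out and 57.3% of kept cells (-0.932 points, -18.2 to 15.5). At P7 it was present in 83.2% of left-out cells, against 63.6% (19.5 points, 6.33 to 32.9). Ldb2 was present in 53.1% of the left-out cells at P7, against 31.8% (21.3 points, 6.21 to 34.7), with mean levels of 46.9 and 15.4 RPKM. At P1 Ldb2 was lower in the left-out heterozygous cells, at 15.4% against 24% (-8.62 points, -17.5 to 3.12). Zfhx3 and Pou2f2 were lower in left-out heterozygous cells at both stages.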

How the results depend on the processing

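Of 80 alternative values for the shares and differences of the paired factors, 68 kept direction and size within counting error, 7 moved and 5 turned sign. The share of cells with members of both pairs was 35% at E13.5, 20.4% at P1 and 21.1% at P90 with a limit of 1 RPKM, and 2.86%, 0.400% and 0 with a limit of 50 RPKM. The lower share at P90 than at P1 thus did not hold at 1 RPKM. The difference in Zfp536 or Zfp385b by Zfhx3 or Pou2f2 turned sign within classes, an alternative chosen after seeing the data: 1.13 points at P1 and 1.05 at P90 in Slc6a3-high cells, and 7.41 and 23.6 in Nxph4- or Gad2-high cells, all with 0 in the interval. In cells of neither class it was -39.7 points at P1. The genotype difference in Zfhx3 or Pou2f2 at P1 was -0.122 points in cells with spike-in RNA. Leaving out any plate moved no value beyond counting error. The shares of single members stayed within it in 80 of 80 values after thinning, but moved in 51 of 80 with a limit of 1 RPKM and in 75 of 80 with 50. No paired analysis was possible because no test was run on single samples without named animals. The precision is limited by the number of cells and animals, and Zfhx3 by its nearness to the limit.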
